A study of Mus musculus musculus x Mus musculus castaneus with 12 samples.

Results

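The genes described here are 10 transcription and chromatin factors of the naive pluripotent state, *Nanog*, *Esrrb*, *Klf2*, *Klf4*, *Klf5*, *Tfcp2l1*, *Zfp42*, *Tbx3*, *Prdm14* and *Dppa3*, out of 24346 genes in the files. They were taken by gene symbol as a set with a known role, with earlier results of these data known, and all 10 were found and passed the filter on low values in every comparison. RNA-seq had been done on F1 hybrid mouse ES cells from crosses between C57BL/6J (BL6) and *Mus castaneus* (cast), in which the X-linked gene *Kdm6a*, encoding a histone H3K27 demethylase, was knocked out (KO) with pairs of Cas9 guides in male cells. BC cells have a BL6 mother and CB cells a cast mother. Unedited controls (wt) were sampled as 2 replicates each of male BC, female BC and male CB cells. The BC knockouts were 3 male clones, the exonic deletions ΔE1 and ΔE3 and the promoter deletion ΔP4, and the CB knockouts 3 male clones, the exonic deletions ΔE2.5 and ΔE2.7 and the promoter deletion ΔP2.1. Exonic clones lack exons 2 to 4, and promoter clones lack the promoter with exons 1 and 2. All cells were grown on inactivated fibroblasts in serum with leukemia inhibitory factor (LIF) and were passed over gelatin to remove the fibroblasts before RNA was taken. The study states that ΔE1 and ΔE3 come from 1 editing event and share an off-target deletion of *Sh3kbp1*, *Map3k15* and *Pdha1*. The wt CB line carries an actin-GFP transgene. Each KO sample is 1 clone, and the wt replicates, which the study calls biological, are not tied to separate cultures by the labels, so p-values measure the spread between these samples, which may be technical. Single-end fragments in the combined count over the BL6 and cast genomes numbered 68457338 to 89070402 per BC sample and 49975599 to 53407103 per CB sample.

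Naive pluripotency is the state of the preimplantation epiblast, which mouse ES cells keep in culture when LIF signals through STAT3. A network of transcription factors that activate one another holds this state, with *Klf4*, *Tfcp2l1* and *Klf5* downstream of LIF and STAT3, *Tbx3* downstream of other LIF-dependent signals, and *Nanog*, *Esrrb* and *Klf2* closer to the inhibition of the MEK and GSK3 kinases. As cells leave the state, these factors are lost and formative and primed genes such as *Otx2*, *Pou3f1* and *Dnmt3b* come up. In serum the network is uneven from cell to cell, so that a bulk level averages over cells, and a change in the share of naive cells and a change in each cell cannot be told apart here.

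The factors lie on 7 autosomes (mm10, gene bounds of GENCODE vM21). *Nanog* (chr6:122707489-122714633, plus strand) and *Dppa3* (chr6:122626410-122630272, plus) lie close together on chromosome 6. *Prdm14* (chr1:13113457-13127163, minus) and *Tfcp2l1* (chr1:118627945-118685168, plus) lie far apart on chromosome 1, and *Zfp42* (chr8:43295063-43306980, minus) and *Klf2* (chr8:72319033-72321656, plus) far apart on chromosome 8. The others are each alone on a chromosome, *Klf4* at chr4:55527143-55532466 (minus), *Tbx3* at chr5:119670669-119684724 (plus), *Esrrb* at chr12:86361117-86521628 (plus) and *Klf5* at chr14:99298691-99315036 (plus). Counts are over the exons of each gene.

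The edited gene was lower in every clone than in its wt. *Kdm6a*, on chromosome X of mm10 from 18162575 to 18279936, was at 50.7 and 52.8 scaled TPM in male BC wt, and at 11.8 in ΔE1, 13.7 in ΔE3 and 0.0423 in ΔP4. Scaled TPM are fragments per kilobase of transcript, divided by the library size after TMM scaling and multiplied by one constant for all samples, so that levels can be compared between genes and samples. In CB it was at 49.1 and 50.2 in wt, and at 2.09 in ΔE2.5, 7.43 in ΔE2.7 and 0.0368 in ΔP2.1. The log2 fold change was -2.60 (standard error 1.30) in BC and -3.95 (standard error 1.25) in CB, and edgeR called neither (adjusted p = 0.509 and 0.19). No clone overlapped the wt of its cross, and fragments from exons outside the deletion count towards the level of an exonic clone. The 4 guides of the study that made these deletions are given as designed, 5′ to 3′ with the PAM in capitals, since they define the KO groups.
ΔE Left: gaaacctcacgaacccgaaaAGG
ΔE Right: tagcattatctgcataccagAGG
ΔP Left: ggacactgcatgtttgatggAGG
ΔP Right: agctacatactccaaaggagAGG
The ΔE Left guide matched the minus strand of exon 2 of *Kdm6a* at chrX:18163390-18163409 of mm10, counting the guide without the PAM. The other guides had no match in the spliced transcript and were not placed.

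Markers were checked before the naive factors were compared. All 8 embryonic stem cell markers (*Pou5f1*, *Sox2*, *Utf1*, *Dppa5a*, *Tdgf1*, *Sall4*, *Lin28a* and *Alpl*) were above 1 scaled TPM in every sample, the lowest value of any of them being 121 in ΔE3. *Pou5f1*, the core factor of all pluripotent states, ranged from 2009.6 scaled TPM in a CB wt replicate to 3801 in a female replicate. The 12 fibroblast markers of the feeder layer summed to 74.6 and 72.4 scaled TPM in male BC wt, 49.5 in ΔE1, 39.7 in ΔE3 and 66.7 in ΔP4. They summed to 112 in both female replicates, with *Thy1* at 67.2 and 66.5 making up most of it. Of 8 fibroblast markers tested between female and male BC wt, edgeR called *Thy1* higher (log2 1.68) and 4 lower, *Col1a1* (-1.56), *Col1a2* (-2.41), *Col3a1* (-4.56) and *Twist2* (-1.91). In CB the sums were 142 and 134 in wt, 79 in ΔE2.5, 90.6 in ΔE2.7 and 186 in ΔP2.1, where *Col1a1* alone was at 103. Fibroblast markers were thus lower in sum in 5 of the 6 clones than in their wt and higher in ΔP2.1. At an unadjusted edgeR p under 0.05, *Col1a2* (log2 -1.06) and *Thy1* (-0.95) were lower in BC KO, of 8 tested, against 4.49% of all genes. In CB KO *Col1a2* (-2.06) was lower, of 10 tested, against 10.5% of all genes, and 0 were higher in either cross. The list medians were -0.49 in BC and -0.32 in CB, and edgeR called 0. The part of fibroblast markers in the results was not tested. The 8 markers of two-cell-like cells were all under 1 scaled TPM in every sample.

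Several libraries stood apart in their alleles. In male BC wt and ΔP4, the median gene of chromosome 8, which carries *Klf2* and *Zfp42*, had 66.8% to 67.7% of its SNP fragments from BL6, against 51.2% in ΔE1 and 51.7% in ΔE3. Total expression of chromosome 8 was lower in these clones than in wt, with a median log2 ratio of -0.49 in ΔE1 and -0.52 in ΔE3 but 0.04 in ΔP4. Chromosome 1, which carries *Tfcp2l1* and *Prdm14*, had a median BL6 share near 68% in all male BC samples, 52.5% and 52.4% in CB wt, 68.4% in ΔE2.5, 35.3% in ΔE2.7 and 48.7% in ΔP2.1. Its median log2 ratio to wt was 0.52 in ΔE2.5, 0.44 in ΔE2.7 and -0.08 in ΔP2.1. The promoter clone ΔP2.1 was also less like its wt in BL6 share across 8695 autosomal genes, with a Spearman correlation of 0.68 to the closer wt replicate against 0.82 for ΔE2.5 and 0.81 for ΔE2.7. Its correlation with female BC wt 1 was 0.60, the highest of the 10 male samples, the others being at 0.42 to 0.56. These correlations are over genes, which are not independent replicates. Some values of the factors are given below beside those of their chromosome.

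The first question was how each factor was expressed and whether it kept its level in the KO clones. *Zfp42* (Rex1), a zinc finger protein used as a marker of naive cells, was at 302 and 289.8 scaled TPM in male BC wt, 426 in ΔE1, 519.8 in ΔE3 and 398 in ΔP4. It was at 1046 and 1032 in female BC wt, at 195 and 196 in CB wt, and at 196 in ΔE2.5, 293 in ΔE2.7 and 392 in ΔP2.1. In BC the groups did not overlap, and in CB ΔE2.5 was level with wt while ΔE2.7 and ΔP2.1 were above it.

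*Nanog*, the homeodomain factor that lets ES cells self-renew with little LIF, was at 205 and 234 scaled TPM in male BC wt, and at 308 in ΔE1, 486 in ΔE3 and 357 in ΔP4. The female BC wt replicates were at 923 and 884. CB wt was at 310.2 and 311, while ΔE2.5 was at 197, ΔE2.7 at 458 and ΔP2.1 at 240.2. Every BC clone was above both wt replicates, whereas the CB clones lay on either side of theirs.

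*Esrrb*, an orphan nuclear receptor that can stand in for *Nanog*, was at 302 and 278 scaled TPM in male BC wt, 391 in ΔE1, 660.0 in ΔE3, 469 in ΔP4, and 739.7 and 772 in female BC wt. In CB it was at 178 and 176 in wt, 177 in ΔE2.5, 245 in ΔE2.7 and 179 in ΔP2.1. Of the CB clones only ΔE2.7 was clearly above wt.

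The 3 Krüppel-like factors, zinc finger activators that share many target sites, differed from one another. *Klf2* was at 337 and 382 scaled TPM in male BC wt, 354 in ΔE1, 448 in ΔE3, 407 in ΔP4, and 287 and 368 in female BC wt, and all these groups overlapped. In CB it was at 113 and 114 in wt, 158 in ΔE2.5, 263 in ΔE2.7 and 161 in ΔP2.1, so every CB clone was above wt. *Klf4* was at 59.1 and 55.8 in male BC wt, 97.4 in ΔE1, 143 in ΔE3, 84.6 in ΔP4, and 588 and 600.4 in female BC wt. The CB values of *Klf4* were 46.4 and 47.2 in wt, 49.4 in ΔE2.5, 55.1 in ΔE2.7 and 78.7 in ΔP2.1. *Klf5* was at 107 and 76.1 in male BC wt, 143 in ΔE1, 159 in ΔE3, 121 in ΔP4, and 195 and 188 in female BC wt. It had the widest gap between the male BC wt replicates of all 10 factors on the log2 scale, an SD of 0.34. In CB *Klf5* stayed between 87.9 and 102 in all 5 samples.

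*Tfcp2l1*, a grainyhead-type factor downstream of STAT3, was at 68.6 and 56.2 scaled TPM in male BC wt, 78.9 in ΔE1, 122 in ΔE3 and 88.6 in ΔP4. It was at 246 and 227 in female BC wt, 43.2 and 43.5 in CB wt, 42.6 in ΔE2.5, 69.4 in ΔE2.7 and 31.8 in ΔP2.1. *Tbx3*, a T-box factor, was at 7.57 and 6.73 in male BC wt, 14.4 in ΔE1, 25.3 in ΔE3, 12.7 in ΔP4, and 150.4 and 151 in female BC wt. In CB *Tbx3* was at 12.3 and 12.1 in wt, 5.25 in ΔE2.5, 12.1 in ΔE2.7 and 12.6 in ΔP2.1. Both genes were above wt in every BC clone and on both sides of wt in CB, and for *Tbx3* ΔE2.5 was the lowest of all 12 samples.

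*Prdm14*, which holds back FGF signalling and DNA methylation, was at 17.4 and 17.2 scaled TPM in male BC wt, 22.5 in ΔE1, 31.6 in ΔE3, 27.3 in ΔP4, and 84.1 and 81.4 in female BC wt. It was at 10.9 and 11.7 in CB wt, 9.19 in ΔE2.5, 20.4 in ΔE2.7 and 8.19 in ΔP2.1. *Dppa3* (Stella), which protects methylation at imprinted genes in the zygote, was at 76.9 and 81.4 in male BC wt, 117 in ΔE1, 63.4 in ΔE3, 72 in ΔP4, and 83.6 and 78.3 in female BC wt. In CB it was at 94.5 and 99.7 in wt, 82.7 in ΔE2.5, 125 in ΔE2.7 and 98.6 in ΔP2.1. It was the factor with no direction shared by the clones of either cross. No factor was lost in any clone, since the lowest ratio to wt was that of *Tbx3* in ΔE2.5, 0.430 times the mean of the CB wt replicates.

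**Figure D1:**
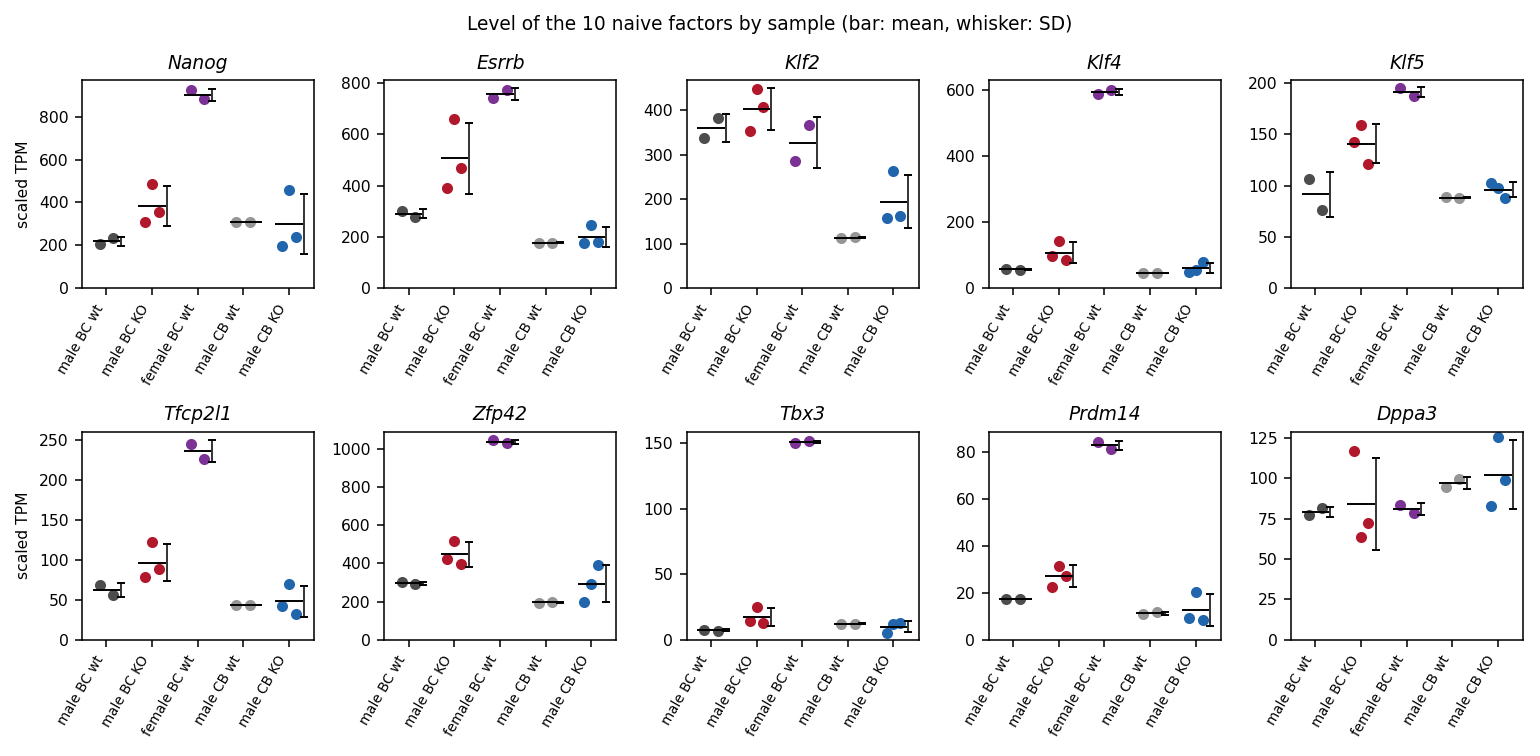
Level of each naive factor in scaled TPM (y axis, from 0) by group (x axis), with each sample as a point, the group mean as a bar and the SD as a whisker. In male BC KO, 8 of the 10 factors lie above both male BC wt points, the female BC wt points lie far above the male ones for 8 factors, and the male CB KO points spread on both sides of wt for *Nanog*, *Klf5*, *Tfcp2l1*, *Tbx3*, *Prdm14* and *Dppa3*.

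In BC, 8 of the 10 factors were higher in every KO clone than in either wt replicate, while over the 13805 genes tested 17.3% were higher without overlap. The exceptions were *Klf2* and *Dppa3*. The edgeR log2 fold changes between KO and wt were positive for all 10, with a median of 0.64 against 0.01 over all genes. *Tbx3* had the largest, 1.29 (standard error 0.31, unadjusted p = 0.0039, adjusted p = 0.33). *Klf4* followed at 0.91 (standard error 0.23, adjusted p = 0.34), then *Esrrb* at 0.80 (standard error 0.22) and *Nanog* at 0.80 (standard error 0.20). *Prdm14* was at 0.65, *Tfcp2l1* at 0.63, *Klf5* at 0.62 and *Zfp42* at 0.60, with standard errors from 0.14 to 0.20. *Klf2* was at 0.16 (standard error 0.13) and *Dppa3* at 0.09 (standard error 0.26).

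The same 8 factors had an unadjusted p under 0.05 and were higher, against 6.56% of all genes. After Benjamini-Hochberg adjustment over all genes, edgeR called 0 of the 10 at a false discovery rate (FDR) under 0.05 and at least 1.5-fold, against 0.029% of all genes, which is 4 genes. DESeq2, the tool of the study, called 6 of the 10 by the same thresholds (*Tbx3*, *Klf4*, *Nanog*, *Zfp42*, *Esrrb* and *Prdm14*, all higher in KO), against 1.88% of all genes. The higher levels of these 6 thus passed the threshold in DESeq2 and not in edgeR. The DESeq2 fit took ΔE1 and ΔE3, from the same editing event, as separate replicates, and was not run with them averaged. With ΔE1 and ΔE3 averaged into 1 replicate, edgeR again gave 8 factors with an unadjusted p under 0.05 and 0 called, and without male BC wt 2 it gave 6.

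Clone by clone, without a test, ΔE3 had 8 factors past 1.5-fold and above both wt replicates, against 9.59% of genes past 1.5-fold and above in that clone and 10.9% below. ΔP4 had 4 such factors (*Nanog*, *Esrrb*, *Tbx3* and *Prdm14*, against 9.18% of genes above and 5.16% below). ΔE1 had 3 (*Klf4*, *Klf5* and *Tbx3*, against 6.05% above and 5.78% below). None of the BC clones had a factor past 1.5-fold below wt. The median log2 ratio of the 10 factors was 0.92 in ΔE3, 0.53 in ΔP4 and 0.51 in ΔE1, and ΔE3 had the larger ratio of the 2 clones of 1 editing event for every factor except *Dppa3*, at -0.32 in ΔE3 and 0.56 in ΔE1. *Klf2* and *Zfp42* kept or exceeded their wt level in ΔE1 and ΔE3 although the median gene of chromosome 8 was at -0.49 and -0.52 there. With the chromosome median subtracted from the edgeR value, *Zfp42* was at 0.89 and *Klf2* at 0.46 in BC.

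In CB, 3 factors were higher in every KO clone than in either wt replicate (*Klf2*, *Klf4* and *Zfp42*), against 22.1% of 13801 genes that were higher without overlap. For *Zfp42* this rests on ΔE2.5 at 195.8 against 195.7 scaled TPM in the higher wt replicate, a difference smaller than that between the wt replicates. *Klf2* had the largest log2 fold change, 0.78 (standard error 0.25, unadjusted p = 0.022, adjusted p = 0.19 from edgeR). *Zfp42* was at 0.60 (standard error 0.28) and *Klf4* at 0.39 (standard error 0.20). The others were between -0.29 for *Tbx3* (standard error 0.37) and 0.19 for *Esrrb* (standard error 0.16), with *Nanog* at -0.05 (standard error 0.36). The median over the 10 was 0.16 against 0.01 over all genes. Only *Klf2* had an unadjusted p under 0.05 and was higher, 1 of 10 against 10% of all genes, and edgeR called 0 of the 10, against 0% of all genes (0 genes, with 1380 genes higher and 1452 lower at an unadjusted p under 0.05). DESeq2 called *Klf2* alone (adjusted p = 0.028), against 3.63% of all genes. The number of factors with an unadjusted p under 0.05 was 0 with either wt replicate left out, 3 without ΔE2.5 or ΔE2.7 and 2 without ΔP2.1. Without ΔP2.1, whose allele shares are described further on, edgeR called 928 of 13801 genes and 0 of the 10 factors, with *Klf2* at 0.90, *Zfp42* at 0.34, *Klf4* at 0.17 and *Nanog* at 0.09.

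The CB clones did not move together. ΔE2.7 had 4 factors past 1.5-fold above wt (*Klf2*, *Tfcp2l1*, *Zfp42* and *Prdm14*), against 7.29% of genes above and 10.1% below. ΔE2.5 had 2 below wt (*Nanog* and *Tbx3*, at log2 ratios of -0.65 and -1.22), against 12.2% of genes below and 6.63% above. ΔP2.1 had 2 above (*Klf4* and *Zfp42*, at 0.75 and 1.00), against 4.35% of genes above and 7.84% below. In ΔE2.7 *Zfp42*, at a log2 ratio of 0.59, was only just past the 1.5-fold limit and *Nanog*, at 0.56, only just short of it. *Tfcp2l1* and *Prdm14* were at log2 ratios of -0.02 and -0.30 in ΔE2.5, while the median gene of chromosome 1 was at 0.52 there. In ΔE2.7 they were at 0.68 and 0.85 with the chromosome at 0.44. With the chromosome median of 0.34 subtracted, the CB log2 fold change was -0.19 for *Tfcp2l1* and -0.17 for *Prdm14*.

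**Figure D2:**
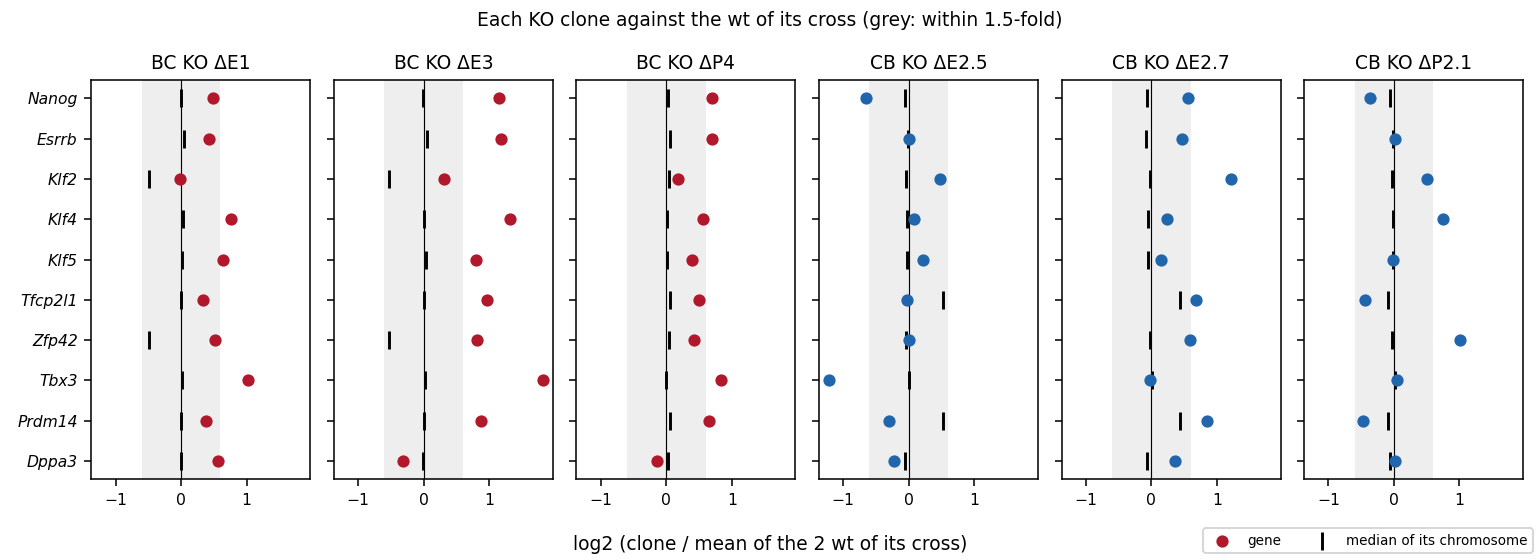
log2 ratio of each factor in each KO clone to the mean of the 2 wt replicates of its cross (x axis), with the factors in rows, a vertical tick for the median of the factor's chromosome in that clone, and a grey band for changes under 1.5-fold. ΔE3 has 8 factors to the right of the band, while ΔE2.5 has *Nanog* and *Tbx3* to its left, and the ticks are off 0 for chromosome 8 in ΔE1 and ΔE3 and for chromosome 1 in ΔE2.5 and ΔE2.7.

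The clones spread more widely than the wt replicates for every factor except *Klf5* in BC, where the SD of log2 levels was 0.20 among clones and 0.34 in wt. The median gene did so too, with an SD of 0.0648 in male BC wt and 0.0286 in CB wt. In male BC KO the SD over the 3 clones went from 0.17 for *Klf2* to 0.50 for *Tbx3*, where the median gene had 0.19. In male CB KO it went from 0.11 for *Klf5* to 0.66 for *Prdm14*, with *Nanog* and *Tbx3* at 0.63, where the median gene had 0.17. The SD of the 2 CB wt replicates went from 0.0013 for *Nanog* to 0.0734 for *Prdm14*.

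Whether the KO effect differed between the crosses was tested as an interaction. The CB minus BC difference in log2 fold change was negative for 9 of the 10 factors, with a median of -0.50 against -0.01 over all 14298 genes. *Tbx3* differed most, by -1.58 (standard error 0.52, unadjusted p = 0.013, adjusted p = 0.20 from edgeR), and *Nanog* by -0.86 (standard error 0.44). Of the 10, 2 had an unadjusted p under 0.05 (*Tbx3* and *Klf5*, both lower), against 9.2% of all genes lower and 7.55% higher. Leaving out 1 sample moved this count to between 1 (without male BC wt 2, ΔE3 or either CB wt replicate) and 5 (without ΔE2.7), with 3 without ΔE2.5 or ΔP2.1. The edgeR test called 0 of the 10, against 0.0629% of all genes. DESeq2 called *Tbx3* alone (adjusted p = 0.046), against 4.42% of all genes. In BC, DESeq2 called 6 factors and in CB 1, but for 5 of those 6 the difference between the crosses was not called by either tool.

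The crosses already differed in the wt state. Of the 10 factors, 4 were called lower in male CB wt than in male BC wt, against 14.7% of 13828 genes called lower. *Klf2* had a log2 difference of -1.65 (standard error 0.07, adjusted p = 4.7e-06 from edgeR), *Esrrb* of -0.70 (standard error 0.05), *Prdm14* of -0.60 (standard error 0.07) and *Zfp42* of -0.59 (standard error 0.05). *Tbx3* was called higher, by 0.79 (standard error 0.07, adjusted p = 0.00011), against 19.8% of genes called higher. *Nanog* was 0.51 higher and *Tfcp2l1* 0.51 lower, both with an FDR under 0.05 but under 1.5-fold, and likewise *Klf4* at -0.28 and *Dppa3* at 0.31. *Klf5*, at -0.04 (standard error 0.14), did not pass. *Zfp42* was at the 1.5-fold limit, and in one fit of all 12 samples, with their common and larger spread, only *Klf2* and *Esrrb* were called. Without CB wt 1 the calls were *Klf2*, *Esrrb* and *Tbx3*. Strain of the mother, line and sequencing depth cannot be told apart between the crosses, and the sums of fibroblast markers given above were higher in CB wt than in male BC wt. *Klf2* and *Zfp42* lie on chromosome 8, with a median BL6 share of 66.8% and 67.1% in male BC wt and 52% and 51.8% in CB wt. *Tfcp2l1* and *Prdm14* lie on chromosome 1, at 67.9% and 68.2% in male BC wt and 52.5% and 52.4% in CB wt. The part of chromosome dose in the differences of these factors was not tested.

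The difference for *Nanog* depended on which genome the fragments were counted on. In male BC wt only 70.8% of the *Nanog* fragments mapped to the BL6 genome were kept in the combined counts, against 99.6% in CB wt, whereas of those mapped to the cast genome 95.6% were kept in male BC wt and 99.6% in CB wt. The median tested gene kept 98.6% of its BL6-mapped fragments in both, but 4.27% of tested genes kept under 80% in male BC wt and 1.13% in CB wt. The study states that its allele analysis treated CB samples in a similar way, with the genomes of mother and father exchanged. Why the kept share differed between the crosses was not tested, and this bears on every value of CB against BC. Counted on the BL6 genome alone, *Nanog* was 0.05 higher in CB wt on the log2 scale, in place of 0.51, and counted on the cast genome alone it was 0.46 higher. The count on BL6 moved *Zfp42* from -0.59 to -0.71, of which 85.2% was kept in BC wt and 94.4% in CB wt. On the cast count 3 factors were called between the wt lines (*Klf2*, *Esrrb* and *Tbx3*), and *Dppa3* turned from 0.31 to -0.11. *Nanog*, *Zfp42* and *Dppa3* each have an annotated pseudogene that shares part of the transcript, with 1.64%, 5.01% and 4.08% of their 75-base windows found again in *Nanog-ps1*, *Zfp42-ps1* and *Dppa3-ps*, so their fragments may be split between copies. Within a cross the KO comparison was hardly affected, since *Nanog* kept 71% of its BL6-mapped fragments in BC KO as well.

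Female BC wt cells had the highest levels of the series for 8 of the factors. Compared with male BC wt, 8 of the 10 factors were called higher, against 24.5% of 14049 genes called higher and 19.9% called lower. *Tbx3* was 20.7-fold higher (log2 4.37, standard error 0.08, adjusted p = 1.6e-10 from edgeR) and *Klf4* 10.2-fold (log2 3.35, standard error 0.08). *Prdm14* was 4.71-fold higher, *Nanog* 4.05-fold, *Tfcp2l1* 3.73-fold, *Zfp42* 3.45-fold, *Esrrb* 2.56-fold and *Klf5* 2.06-fold. *Klf2*, at a log2 difference of -0.16 (standard error 0.11), and *Dppa3*, at 0.01 (standard error 0.07), were not called. The female comparison and that of the BC clones share the male BC wt replicates and are not independent. Sex and line cannot be told apart, since the female cells are 1 line.

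**Figure D3:**
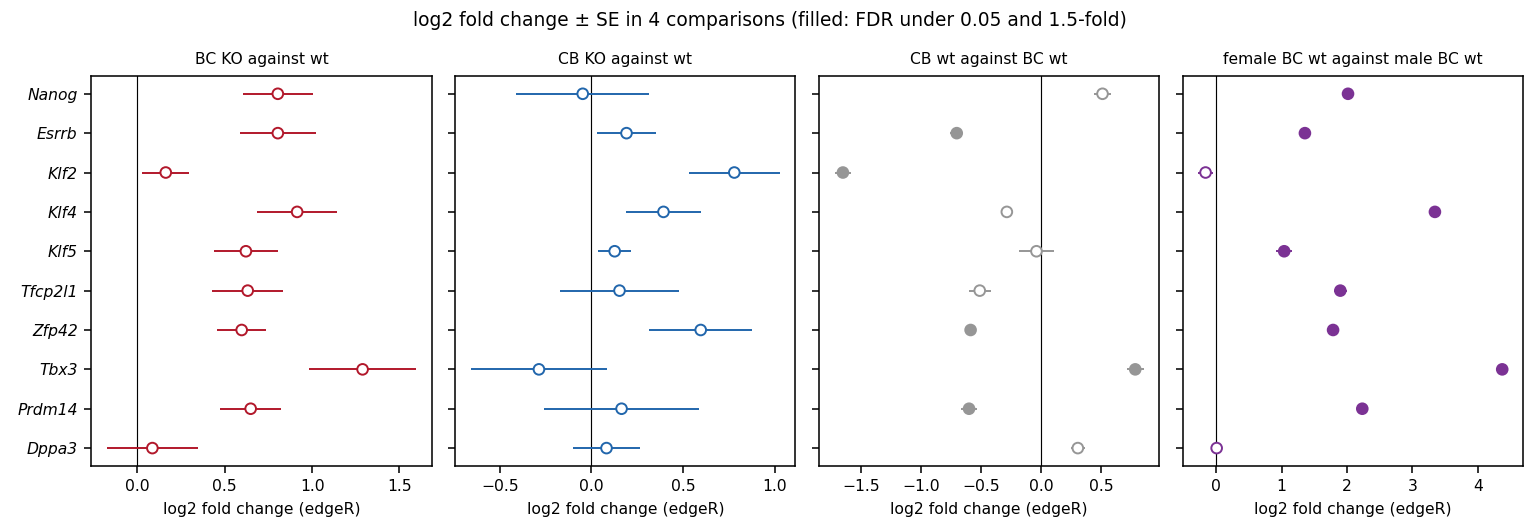
edgeR log2 fold change of each factor (x axis, one panel per comparison with its own scale) with its standard error as a whisker, filled where the FDR was under 0.05 and the change at least 1.5-fold. Open points throughout both KO panels, 5 filled points for CB wt against BC wt and 8 for female against male BC wt show where edgeR made calls.

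Allele-specific fragments were then examined, that is fragments with a SNP that assigns them to BL6 or cast, about 18% of all fragments. In male wt, allowing for the autosomal ratio of each sample, 4 factors were called higher from BL6 (against 35.2% of 10465 genes) and 5 higher from cast (against 33.2%). *Tfcp2l1* had a log2 ratio of BL6 to cast of 1.35 (standard error 0.03), *Klf5* of 1.16 (standard error 0.04), *Nanog* of 1.02 (standard error 0.03) and *Klf2* of 0.48 (standard error 0.11). Adjusted for the autosomal ratio, the BL6 share of *Klf2* was 61.9% and 63.3% in male BC wt, where the unadjusted median of chromosome 8 was 66.8% and 67.1%, and 45.4% and 49% in CB wt. *Prdm14* was at -2.36 (standard error 0.09), *Zfp42* at -1.74 (standard error 0.04), *Dppa3* at -0.71 (standard error 0.05), *Klf4* at -0.21 and *Esrrb* at -0.17. *Tbx3*, at -0.07 (standard error 0.09), was not called. The unadjusted BL6 share of *Tfcp2l1* was 77.8% and 78.2% in male BC wt, where the median of chromosome 1 was 67.9% and 68.2%. In CB wt the share was 67.3% and 67.8%, with chromosome 1 at 52.5% and 52.4%. Most expressed genes with SNPs were called in this test, so that calls among the factors are near the background, and the sizes carry the description.

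The shares of the strongest cases were as follows. *Zfp42* had 22.1% of its SNP fragments from BL6 in BC wt 1 (95% Wilson interval 20.8% to 23.6%) and 24.5% in BC wt 2 (23% to 26.1%), and 26.3% and 23.9% in the CB wt replicates. *Prdm14* had 24.6% and 26% from BL6 in male BC wt, where the median gene of chromosome 1 had 68%, and 11.4% and 11.2% in CB wt. *Klf5* was between 66.4% and 76.3% in all 12 samples, with the chromosome 14 median between 43.4% and 51%. The intervals cover counting error only.

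Maternal and paternal alleles were compared through the reversal of strains between the crosses. Parent of origin, line and the share of kept fragments all differ between the crosses and cannot be told apart here. Relative to the strain effect, 4 factors were called higher from the maternal allele (against 22% of genes) and 5 from the paternal one (against 18.5%). *Prdm14* had a log2 maternal-to-paternal ratio of 0.64 (standard error 0.10), *Klf2* of 0.42, *Tfcp2l1* of 0.32 and *Klf5* of 0.13. *Nanog* was at -0.90 (standard error 0.03), *Dppa3* at -0.62 (standard error 0.05), *Klf4* at -0.27, *Zfp42* at -0.14 and *Esrrb* at -0.10, while *Tbx3*, at -0.14 (standard error 0.09), was not called. *Prdm14*, *Tfcp2l1*, *Klf2* and *Zfp42* lie on chromosomes whose BL6 share was near 67% in male BC wt and near 52% in CB wt. The part of this difference in their ratios was not tested. *Nanog* had 52.8% and 56.6% from BL6 in male BC wt and 80.05% and 78.9% in CB wt. Of its BL6-mapped fragments 70.8% were kept in male BC wt, against 85.2% for *Zfp42* and 89.8% for *Dppa3*.

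In the KO clones the allele shares of the 10 factors were compared with wt. In BC, edgeR called 0 of the 10, against 0.00926% of 10803 genes, and 4 had an unadjusted p under 0.05 (*Zfp42*, *Klf2*, *Klf4* and *Prdm14*), against 5.13% of all genes. When either wt replicate was left out 1 factor had such a p, and 3 to 5 did without 1 of the clones. *Zfp42* had 8.45% from BL6 in ΔE1 and 9.31% in ΔE3, and 17.6% in ΔP4 (16.5% to 18.7%), all 3 below the intervals of both wt replicates, and the median of chromosome 8 was 66.8% and 67.1% in wt, 51.2% in ΔE1, 51.7% in ΔE3 and 67.7% in ΔP4. *Klf2* had 66.8% and 68.2% in wt, 49.6% in ΔE1, 46.2% in ΔE3 and 65.1% in ΔP4. This was close to the median of chromosome 8 except in ΔE3, where the interval (42.6% to 49.9%) lay below it. Without ΔP4 both were called, *Zfp42* at a log2 change of the BL6 to cast ratio of -1.59 and *Klf2* at -1.12, that is, in 2 clones of 1 editing event, where edgeR called 4.88% of 10857 genes. In CB, edgeR called 0 of the 10, against 0% of 10267 genes, and 0 had an unadjusted p under 0.05, against 3.26% of all genes (335 genes). With ΔE2.5 or ΔE2.7 left out, 1 factor had such a p. The exonic CB clones went in opposite directions at the factors of chromosome 1. *Tfcp2l1* had 67.3% and 67.8% from BL6 in CB wt, 79.2% in ΔE2.5 and 46.5% in ΔE2.7. *Prdm14* had 11.4% and 11.2% in CB wt, 34.1% in ΔE2.5 and 6.88% in ΔE2.7. The median of chromosome 1 was 52.5% and 52.4% in CB wt, 68.4% in ΔE2.5 and 35.3% in ΔE2.7.

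The promoter clone ΔP2.1 differed from the other CB samples at several factors. *Klf2* had 0 BL6 and 146 cast fragments in ΔP2.1, which allows a BL6 share of up to 2.05% (3 fragments of 146) or, by the Wilson interval, 2.56%, against 49.6% and 53.3% in CB wt. The female BC wt replicates had 2 BL6 fragments each, 0.308% and 0.281%. Within 5 Mb of *Klf2*, 9 of 90 genes had under 5% BL6 fragments in ΔP2.1 and 8 in each female replicate, and 0 in all other samples. *Klf4* had 21.4% from BL6 in ΔP2.1 (18.9% to 24.1%) and 20.7% and 22.2% in female BC wt, against 44.5% to 54.5% in all other samples. *Tbx3* had 30.4% in ΔP2.1 and 29.6% and 32.5% in female BC wt, against 44.5% to 56.2% elsewhere. *Zfp42* had 39.8% in ΔP2.1, with 35.3% and 37.6% in female BC wt and 26.3% and 23.9% in CB wt. *Tfcp2l1* had 53% in ΔP2.1 (50.6% to 55.4%), with 51.9% and 50.8% in female BC wt and 67.3% and 67.8% in CB wt. *Klf5* had 72.5% (69.8% to 75%), with 72.7% and 76.3% in female BC wt and 66.4% and 68.9% in CB wt, where its interval overlapped that of CB wt 2. For these 6 factors the share in ΔP2.1 was nearer to the female line than to CB wt. *Prdm14*, at 20.5%, was above both lines, and *Esrrb* was at 48.1% with 47.7% and 48% in female BC wt and 48.1% and 50.5% in CB wt. The shares of *Nanog*, *Dppa3* and chromosome X went with the CB label of the clone. *Nanog* had 79% from BL6 in ΔP2.1, with 80.05% and 78.9% in CB wt and 53.9% and 53.8% in female BC wt, and *Dppa3* had 47.3%, with 50% and 48% in CB wt and 33.9% and 34% in female BC wt. For both genes the share of kept fragments also differed by cross. Of BL6-mapped *Nanog* fragments, 71.4% were kept in female BC wt, 99.6% in CB wt and 99.7% in CB KO. Of cast-mapped *Dppa3* fragments, these values were 69.4%, 88.7% and 89.3%. The part of this in their allele shares was not tested. Over chromosome X the BL6 share was 9.94% in ΔP2.1, 9.95% and 9.97% in CB wt, and 51.1% and 50.6% in female BC wt. Which line the clone came from was not tested, and the CB KO values without it are given above. With the level of *Klf4* split by its BL6 share after adjustment for the autosomal ratio (19.3% in ΔP2.1, 49.1% and 45.6% in CB wt), the part from cast was 63.5 scaled TPM in ΔP2.1 and 23.6 and 25.6 in CB wt, and that from BL6 was 15.2 and 22.8 and 21.5.

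**Figure D4:**
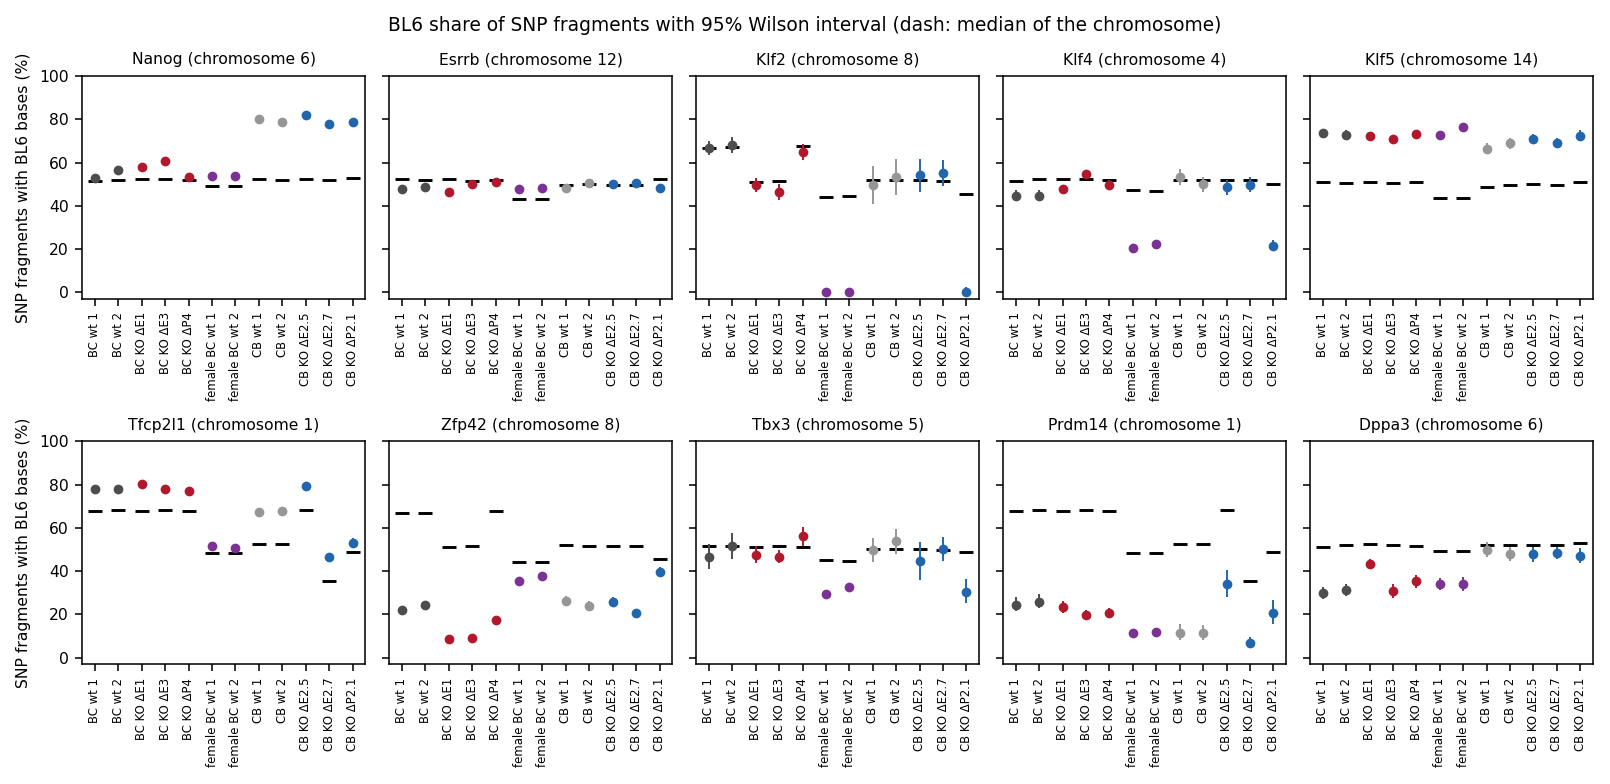
Share of SNP fragments from BL6 in percent (y axis) for each factor in each of the 12 samples (x axis, male unless named female), with 95% Wilson intervals and a dash for the median gene of the same chromosome. *Klf2* falls to 0 in ΔP2.1 and near 0 in female BC wt, *Zfp42* and *Prdm14* lie below their chromosome in every sample, and *Nanog* is near 80% in the 5 CB samples only.

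Genes around the network gave context for the factors. All 12 formative and primed genes had negative log2 fold changes in BC KO, with 6 at an unadjusted p under 0.05 and lower (*Sox3*, *Sall2*, *Dnmt3a*, *Dnmt3b*, *Pou3f1* and *Lef1*), against 4.49% of all genes, and 0 higher. Its median log2 fold change was -0.89. *Sox3*, a SOXB1 factor, was at 20.3 scaled TPM in both male BC wt replicates and at 8.55, 9.37 and 6.61 in ΔE1, ΔE3 and ΔP4, with a log2 difference of -1.31 (standard error 0.19) and an edgeR adjusted p of 0.217. *Sall2*, a zinc finger factor, was at 33.8 and 31.8 in wt and at 15.1, 9.7 and 17.5 in the same clones, with a log2 difference of -1.22 (standard error 0.23). In CB the same list had a median of 0.18, with 1 gene (*Otx2*) at an unadjusted p under 0.05 and higher and 0 lower, against 10.5% of all genes lower. The interaction had 6 of the 12 at an unadjusted p under 0.05, all with the more positive log2 fold change in CB, against 7.55% of 14298 genes, and edgeR called 0 of the 12 in each of these 3 tests.

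The other 15 naive-state genes had a median log2 fold change of 0.33 in BC, with 5 at an unadjusted p under 0.05 and higher, against 6.56% of all genes, and 0 lower, against 4.49%. *Nr0b1* (Dax1), a nuclear receptor that partners *Esrrb* and *Nanog*, was at 154 and 162 scaled TPM in male BC wt and at 215, 543 and 249 in ΔE1, ΔE3 and ΔP4, with ΔE3 far above the others. The list median in CB was 0.27, with 4 higher, against 10% of all genes, and 0 lower, against 10.5%, among them *Nr5a2*, a nuclear receptor that can replace *Pou5f1* in reprogramming, at 0.75 (standard error 0.27). Of the 12 genes of the LIF and STAT3 pathway, 3 were higher in BC at an unadjusted p under 0.05 (*Il6st*, *Pim1* and *Pim3*), against 6.56% of all genes, and 0 lower, and in CB 3 were higher, against 10%, and 2 lower, against 10.5%. *Stat3* was at 35.1 and 36.2 in CB wt and at 53.1, 44.1 and 55.7 in ΔE2.5, ΔE2.7 and ΔP2.1. *Jak2*, a Janus kinase, was at 12.7 and 13.4 in CB wt and at 4.23, 6.64 and 9.53 in the same clones, with a log2 difference of -0.93 (standard error 0.32).

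The list of core pluripotency genes holds 7 factors shared by naive and primed cells and *Nr6a1*, an orphan nuclear receptor that represses *Pou5f1*. The 8 genes had a median of -0.03 in BC, with 0 higher and 1 lower (*Lin28a*), against 6.56% and 4.49% of all genes. In CB the median was 0.29, with 6 higher and 1 lower, against 10% and 10.5%, *Nr6a1*, at -0.58 (standard error 0.10). *Sox2*, the partner of *Pou5f1*, was at 358 and 367 scaled TPM in CB wt and at 609, 642 and 489 in ΔE2.5, ΔE2.7 and ΔP2.1. Among 13 lineage regulators, 11 were tested in BC with 1 higher (*Gata4*) and 2 lower (*T* and *Eomes*), against 6.56% and 4.49% of all genes, and 12 in CB with 1 higher and 0 lower, against 10% and 10.5%. *T* (brachyury), the mesoderm factor, was at 8.81 and 8.11 in male BC wt and 5.43, 3.59 and 3.97 in its clones, and at 114 in both CB wt replicates with 35.5, 199.5 and 26.2 in ΔE2.5, ΔE2.7 and ΔP2.1. *Pax6*, the neural factor, was at 2.02 and 2.37 in CB wt and at 7.92, 3.34 and 8.23 in these clones. Of 4 tested regulators of exit from the naive state (the repressors *Tcf7l1* and *Zfp706*, *Flcn*, which promotes exit, and *Tfe3*, which *Flcn* keeps out of the nucleus and which sustains the naive state), 0 had an unadjusted p under 0.05 in BC and 1 in CB, *Tfe3*, at 0.37 (standard error 0.07). Adjusted over all genes, edgeR called 0 genes of these lists in either KO comparison. *Dnmt3a*, *Dnmt3b*, *Pou3f1*, *Lef1*, *Otx2*, *Il6st*, *Pim1*, *Pim3*, *Lin28a*, *Gata4* and *Eomes* were chosen for naming after their values were seen.

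**Figure D5:**
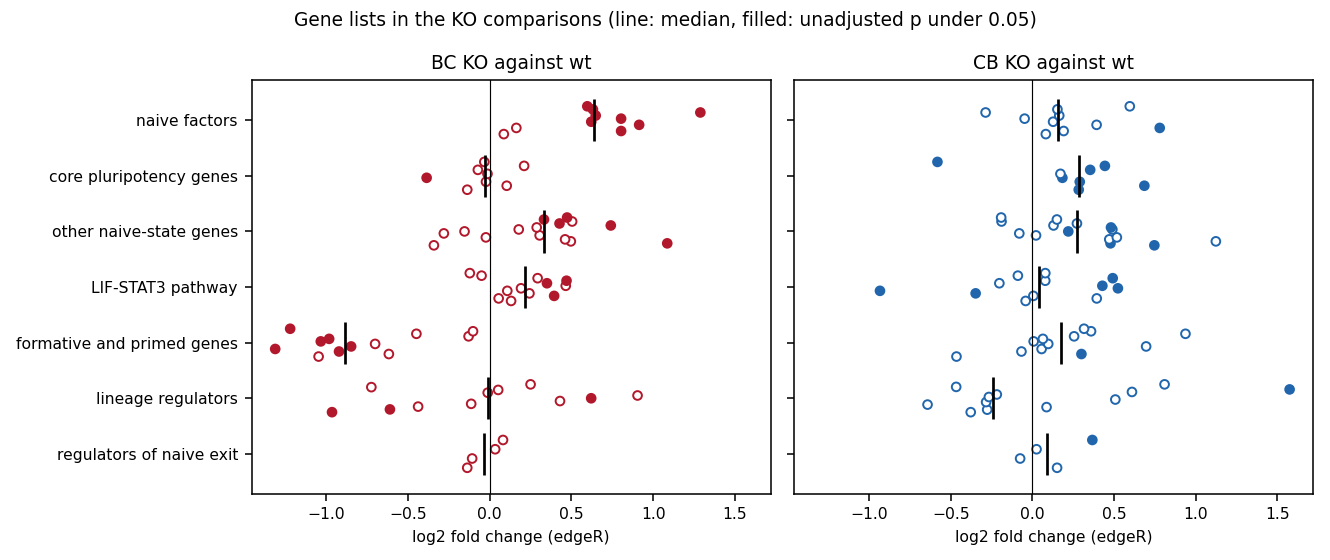
edgeR log2 fold change (x axis) of every tested gene of each list (rows) in BC KO and CB KO against wt, with a line at the list's median and filled points at an unadjusted p under 0.05. In BC the naive factors lie right of 0 (median 0.64) and the formative and primed genes left of it (median -0.89), and in CB both medians are above 0 (0.16 and 0.18).

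The same lists were compared between the wt lines. In female against male BC wt, 9 of the 12 formative and primed genes were called, all lower, against 19.9% of all genes, with a median log2 difference of -0.9999. Of the 15 other naive-state genes, 8 were called higher in female cells, against 24.5% of all genes, with *Jam2* at 2.39 and *Tcl1* at 2.23, and 3 lower (*Gbx2* at -2.10, *Dppa2* at -0.996 and *Nr5a2* at -0.73). Of the core list 4 were called lower (*Zfp281*, *Lin28a*, *Sall4* and *Nr6a1*) and 0 higher. Of the 12 genes of the LIF and STAT3 pathway, 3 were called higher and 1 lower, of 11 tested lineage regulators 3 higher and 5 lower, and of the 4 regulators of exit 0 higher and 1 lower (*Tcf7l1* at -0.64). The fibroblast markers of this comparison are given above. In CB against BC wt, 19.8% of all genes were called higher and 14.7% lower. Of the 12 formative and primed genes, 2 were called higher (*Fgf5* at 2.45 and *Cdh2* at 1.15) and 2 lower (*Tcf15* at -2.20 and *Dnmt3a* at -0.61). Of 12 tested lineage regulators, 9 were called higher and 2 lower (*Sox1* at -2.66 and *Pax6* at -1.49), with a median of 1.59. Of the 15 other naive-state genes, 7 were called lower (*Nr5a2*, *Gbx2*, *Tcl1*, *Tdh*, *Pecam1*, *Fgf4* and *Tet2*) and 0 higher in CB, and in the core list *Sox2* at -1.55 and *Zfp281* at -0.66 were among those called lower and *Nr6a1* was called higher at 0.88. Of the 12 genes of the LIF and STAT3 pathway, 3 were called higher and 5 lower, and of the 4 regulators of exit 0 were called, with *Tfe3* at -0.52 under an FDR of 0.05 but under 1.5-fold. Of 10 tested fibroblast markers, 7 were called higher and 1 lower (*Thy1* at -0.62), while *Col1a2* was at -0.0028 (standard error 0.09), also with a list median of 1.59. The part of fibroblast RNA in the level of *T* in CB wt, given above, was not tested. The genes named in this comparison of the wt lines were chosen for naming after their values were seen.

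Across the 12 samples, most factors followed one another. These samples include the female replicates, which had the highest levels of the series for most factors, and pairs of other genes were not counted. Of the 45 pairs, 26 had a Pearson correlation of log2 levels over 0.8, the highest being *Tfcp2l1* with *Prdm14* at 0.99 and the lowest *Esrrb* with *Dppa3* at -0.50. Over the 6 KO clones, each relative to the wt of its cross, 9 of the 45 pairs were over 0.8 and the median correlation was 0.34. *Tfcp2l1* and *Prdm14*, both on chromosome 1, were at 0.96, *Nanog* and *Esrrb* at 0.95, and *Klf2* and *Klf5* at -0.60. Among 13497 other genes, those with the pattern most like a factor over the 12 samples were *Idh2* (0.97) and *Pim3* (0.96) for *Nanog*, *Adm2* and *Pycr1* (both 0.99) for *Esrrb*, *Fance* (0.99) and *Ggnbp1* (0.98) for *Klf2*, and *Fig4* and *Mmrn2* (both 0.99) for *Klf4*. For *Tfcp2l1* they were *Mob3c* (0.99) and *Mapt* (0.98), for *Prdm14* *Mob3c* (0.99) and *Macrod1* (0.98), for *Tbx3* *Tubb2a-ps2* and *Smug1* (both 0.99), for *Klf5* *Stard5* (0.97) and *Cd68* (0.96), for *Zfp42* *9030617O03Rik* and *Nos1* (both 0.98), and for *Dppa3* *Rhox9* (0.91) and *Urgcp* (0.88). These are descriptions over samples that share lines and are not independent.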

How the data were processed

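RNA-seq libraries (TruSeq v2, which does not mark strand) had been sequenced as 75-base single-end reads and mapped by the authors to mm10 and to a cast genome made by placing SNPs into it. The study names Bowtie2 and TopHat, and the submitters' processing notes give Bowtie2 as version 2.2.5. The deposited values are estimated counts of fragments per gene, mapped to BL6, mapped to cast, a combined count labelled either, and with a SNP of BL6 or of cast. For the naive factors the combined count was at or below both single-genome counts in every sample, such as 13451 against 19028 (BL6) and 14000 (cast) for *Nanog* in male BC wt 1. Levels and expression tests used the combined count. They were rounded to whole numbers. Pseudogene copies and overlapping antisense genes can share fragments with a gene.

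The 10 factors were taken by symbol from 24346 genes, of which 23310 matched GENCODE vM21 for length and position, and 1036 were given the median length of 2283.5 bases. Members and gene lists were chosen with earlier results of these data known. The value of 1 gene of these lists is not reported here. For each comparison, genes that reached more than 1 TPM in any of its samples entered edgeR 4.0.16 (quasi-likelihood, TMM, Benjamini-Hochberg adjustment, R 4.3.3). A call needed an FDR under 0.05 and, for expression other than the interaction, at least a 1.5-fold change. The wt fits used only samples of the comparison, and the KO fits the wt and KO of 1 cross. SNP counts were tested where every sample had at least 20 SNP fragments, as a ratio of BL6 to cast within each sample. DESeq2 1.42.0 was the alternative tool. Named were all 10 factors and, in each list, the tested genes with the largest changes at an unadjusted p under 0.05. For likeness, the 2 genes with the highest Pearson correlation of log2(TPM + 1) were named. Depth was 49975599 to 89070402 fragments per sample, so that counting error is small beside the spread of clones for total levels. SNP counts are smaller, so that their counting error is larger. Chromosome X genes deleted off target in ΔE1 and ΔE3 were left out of the BC and interaction tests. Replicate numbers of the wt groups were compared for pairing as described under the processing alternatives.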

Additional observations from a re-analysis of the deposited data

Results flagged for a closer look

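A difference between the crosses drew attention for 4 values. The KO effect on *Tbx3* differed by -1.59 on the log2 scale, CB minus BC, by DESeq2 (adjusted p = 0.0461), where edgeR gave an adjusted p of 0.203. In allele-specific fragments of male wt cells, the log2 ratio of maternal to paternal fragments, called by edgeR, was -0.90 for *Nanog*, -0.62 for *Dppa3* and 0.64 for *Prdm14*, so that the ratio of BL6 to cast differed between the crosses. Adjusted for the autosomal ratio, the BL6 share was 47.6% and 51.2% in male BC wt and 77.3% and 75.9% in CB wt for *Nanog*, 25.7% and 26.8% against 45.8% and 43.8% for *Dppa3*, and 20.9% and 22% against 9.78% and 9.64% for *Prdm14*. *Nanog* and *Dppa3* are the factors with the fewest kept fragments of one genome in BC wt, 70.8% of those mapped to BL6 for *Nanog* and 65.8% of those mapped to cast for *Dppa3*, and *Prdm14* lies on chromosome 1, whose median BL6 share was 67.9% and 68.2% in male BC wt and 52.5% and 52.4% in CB wt. The part of these values in the differences was not tested, and parent of origin cannot be told apart from line.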

How the results depend on the processing

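Of 860 values of single factors under the alternatives, 793 kept their direction and their side of the threshold, 14 lost a call, 12 gained one, 2 moved and 39 changed sign. DESeq2 called 6 factors in BC KO, 1 in CB KO and 1 in the interaction, where edgeR called 0. All 12 samples in one fit left 2 of the 5 calls between CB wt and BC wt, and fragments mapped to the cast genome left 3. Leaving out each sample in turn gave 3 to 7 calls between CB wt and BC wt (3 without CB wt 1, 7 without male BC wt 2), 8 in each case between female and male BC wt, 7 to 9 for maternal against paternal alleles, 9 in each case for BL6 against cast, and 0 for both KO comparisons and the interaction. Allele shares gave 0 to 2 calls in BC KO (2 without ΔP4, where 530 of 10857 genes were called) and 0 in CB KO. Where 1 sample of a group was left, it was assumed to vary like the other groups.

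Signs turned, as log2 values, for the interaction of *Zfp42* on BL6-mapped fragments (0.0396), for *Dppa3* on cast-mapped fragments (-0.11 for CB against BC wt and -0.0688 for female against male BC wt, both counts chosen after seeing the data), and for *Zfp42* (0.0391) and *Dppa3* (0.0384) with ΔE1 and ΔE3 averaged. With the chromosome median subtracted, CB KO was at 0.0036 for *Nanog*, -0.19 for *Tfcp2l1* and -0.17 for *Prdm14*. Leaving out a sample, *Dppa3* in BC KO ran from -0.23 (without ΔE1) to 0.25. In CB KO *Nanog* ran from -0.50 to 0.18 (above 0 without ΔE2.5 or ΔP2.1), *Tbx3* from -0.49 to 0.0201 (without ΔE2.5), and, below 0 without ΔE2.7, *Tfcp2l1* from -0.22 to 0.38, *Prdm14* from -0.38 to 0.40 and *Dppa3* from -0.10 to 0.21. Between wt lines, *Klf5* ran from -0.26 to 0.23 for CB against BC, and *Klf2* from -0.35 to 0.0072 and *Dppa3* from -0.0405 to 0.0551 for female against male. The interaction ran from -0.27 to 0.22 for *Zfp42* and from -0.19 to 0.30 for *Dppa3*. Allele shares ran in BC KO from -0.066 to 0.0082 for *Klf5*, from -0.0156 to 0.13 for *Tfcp2l1* and from -0.0726 to 0.22 for *Tbx3*. In CB KO they ran from -0.062 to 0.0886 for *Nanog*, -0.0448 to 0.0931 for *Esrrb*, -1.91 to 0.20 for *Klf2*, -0.15 to 0.52 for *Zfp42* and -0.12 to 0.00011 for *Dppa3*, and BL6 against cast from -0.13 to 0.0089 for *Tbx3*. The cause was not tested.

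The replicate block gave 5 calls between CB wt and BC wt and 8 between female and male BC wt, as without it. Deviations of same-numbered wt samples correlated at 0.24 for male and female BC, 0.10 for male BC and CB and 0.02 for female BC and CB. With 2 replicates per group the deviations are equal and opposite, so these values do not decide whether the numbers pair the samples. With 2 wt replicates and 3 clones per cross, depth was not the limit for total levels. *Klf2*, *Tbx3* and *Prdm14* had few SNP fragments in CB and wide Wilson intervals. The CB clones also differed beyond these intervals, with *Prdm14* at 34.1% (28.1% to 40.6%) in ΔE2.5 and 6.88% (4.97% to 9.46%) in ΔE2.7.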
